A study of Mus musculus with 8 samples.

Results

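Parp9, Dtx3l, Parp14, Parp10, Parp12, Helz2, Herc6 and Trim21 encode ADP-ribosylation and ubiquitin enzymes, and partners of them, whose genes are tied to interferon. They were taken by symbol from the deposited table as a named list of 8 genes, out of 34478 genes in all. The genes were selected on their difference between trametinib and DMSO in these same libraries, so the values with and without the drug are given as a description. Calls from the fit over all genes are only counted for these 8 genes, beside the share over all genes. RNA was sequenced from 4 primary murine PDAC cell lines, numbered #1, #3, #5 and #10, each after 48 h with the MEK inhibitor trametinib at the IC50 of that line and with the solvent DMSO. There was 1 library per line and treatment, 4 DMSO and 4 trametinib libraries in all. All lines came from pancreatic tumors of genetically engineered mice whose alleles include Ptf1awt/Cre and Trp53loxP/loxP. In these mice Cre, expressed from the Ptf1a locus of pancreatic progenitors, deletes Trp53. Both treatment groups carry the same alleles. The dose was set for each line and its value was not used here, and the sources used here do not state whether the lines came from different mice. P-values thus measure the spread between these cell lines only.

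PARP enzymes transfer ADP-ribose from NAD+ to proteins and nucleic acids. Interferon binds its receptor and, through the JAK kinases, activates a complex that holds STAT2 and IRF9 and binds interferon-stimulated response elements in promoters. A group of PARP genes belongs to the targets of this complex. PARP9 and the ubiquitin ligase DTX3L form a heterodimer that acts in interferon responses and DNA repair, and the other genes of the group write ADP-ribose, ubiquitin or the ubiquitin-like protein ISG15 onto targets, or help transcription.

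The normalized counts of a library, which are gene counts that the authors scaled so that libraries can be compared, summed to between 30680091 and 36385719. From the step between low values, library depth was estimated as 29300000 to 46000000 reads, and 3 reads, used as a floor, equal 2.32 to 3.72 normalized counts. All 8 genes lay above this floor in each library and passed the filter at a mean of 10, as did 15888 of the 34478 genes. Of 10 genes controlled by MAPK signaling, 9 fell with trametinib below 0.05 in limma's adjusted p, led by the transcription factors Etv4 at -5.92 and Etv5 at -4.82 on the log2 scale and the feedback inhibitors Spry4 at -3.61 and Dusp6 at -2.51, each lower in 4 of 4 lines (limma adjusted p between 0.00012 and 0.00032). For the labelled pancreatic tumor cells, keratins Krt7, Krt8, Krt18 and Krt19 stood between 9734 and 132484 normalized counts, while Epcam, another epithelial marker, was listed at 0 in 6 of 8 libraries. Of the 10 immune cell markers, 9 are in the table. Cd3e and Lyz2 were at 1.91 or lower in every library, while Ptprc stood at 4.05 to 17.2 and Cd68 at 130 to 228. Of the 5 markers tested, 1 was higher with trametinib, Csf1r, with a mean of 18.9 under DMSO and 139 under trametinib. The immune markers summed to 1125 to 2675 with DMSO and to 1339 to 3811 with trametinib, most of it Cd14. Fibroblast markers summed to 94.9 to 366 with DMSO and to 440.0 to 1258 with trametinib, with 1 of 5 tested, Col1a1, higher. Endothelial markers summed to 30.9 to 55.4 and to 62.7 to 831, with 1 of 3, Tek, higher, and acinar markers to 45.7 to 257 and to 24.3 to 132, with the 1 tested, Cela1, lower. Of 7 epithelial markers tested, Krt7, Krt8, Krt18, Krt19 and Sox9 were lower and Cldn4 higher. In the same fit, 27.3% of all genes tested were higher and 25.6% lower. Tek passed the filter only through its trametinib values, with a mean of 8.21 under DMSO. The part of these other cell types' markers in the values below was not tested.

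Parp9 and Dtx3l were both higher with trametinib in 3 of the 4 lines. The fold changes were 1.88 and 2.03 in line #1, 1.59 and 1.58 in line #5, and 1.52 and 1.75 in line #10. The pair had the smallest fold changes of the group in line #3, where Dtx3l was below its DMSO level. Parp9, an inactive or weakly active PARP with macrodomains that read ADP-ribose, lies on the plus strand of chromosome 16 from 35938470 to 35972605 of GRCm38. Its normalized counts in lines #1, #3, #5 and #10 were 326, 282, 237 and 327 with DMSO and 613, 314, 377 and 497 with trametinib. Each line was higher with trametinib, line #3 by only 1.11-fold, and the 2 treatments overlapped because line #3 with trametinib stayed below lines #1 and #10 with DMSO. The mean went from 293 ± 42.9 to 450.3 ± 132 (SD, n = 4 lines), which is 0.58 on the log2 scale (SE 0.16). This and later fold changes are on the log2(value + 1) scale, which understates the change of low genes. In these bulk libraries, more cells that express a gene and more RNA per cell cannot be told apart.

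Dtx3l, the E3 ubiquitin ligase of the pair, lies on the minus strand of chromosome 16 from 35926511 to 35939151. Its normalized counts were 288, 329.9, 264 and 323 with DMSO and 585, 309, 418 and 566 with trametinib in the same order of lines. It was higher with trametinib in lines #1, #5 and #10, while in line #3 it stood 0.94-fold relative to DMSO, and the treatments overlapped through the trametinib library of that line only. The log2 fold change over the 4 lines was 0.60 (SE 0.20), with single lines from -0.09 to 1.02. The ratio of Parp9 to Dtx3l was 0.97 ± 0.12 with DMSO and 0.96 ± 0.084 with trametinib (SD, n = 4 lines), and lay between 0.85 and 1.13 over the 8 libraries. The ratio moved most in line #3, from 0.85 with DMSO to 1.02 with trametinib, and in line #10 it went from 1.01 to 0.88. These counts are not scaled to the length of the genes.

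The 2 genes start head to head, and their annotated bodies overlap by 682 bases. The RefSeq promoter window of Dtx3l on GRCm38.p6, chr16:35938978-35939277 on the minus strand, runs from 250 bases before the Dtx3l start at 35939027 to 50 bases from it. Of the 7 Parp9 transcripts in GENCODE M21, 4 start inside it, between 35939011 and 35939061. The window is shown because it holds the starts of both genes, and capitals mark the 51 bases, 217 to 267 counted from its 5′ end, between the first and the last of these Parp9 starts.
Dtx3l promoter: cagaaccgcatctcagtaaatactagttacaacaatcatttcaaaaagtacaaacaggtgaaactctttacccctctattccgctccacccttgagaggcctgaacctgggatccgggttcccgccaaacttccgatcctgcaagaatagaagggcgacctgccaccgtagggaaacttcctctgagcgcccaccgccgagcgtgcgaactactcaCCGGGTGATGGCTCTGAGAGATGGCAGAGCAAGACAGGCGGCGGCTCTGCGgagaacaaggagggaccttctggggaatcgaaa
The window holds neither the core of the interferon-stimulated response element, spelled GAAA, any 2 bases and GAAA, nor the gamma-activated site TTCNNNGAA, on either strand. It covers only part of the sequence around these starts. Both Dtx3l transcripts in GENCODE M21 start at 35939151, within the window, and a Parp9 transcript starts outside it, at 35938470. Bases beyond the window were not searched, so elements near the 2 genes may have been missed. Among all 32851 promoter windows of this length, 3.44% hold the first and 8.3% the second. Exons of Parp9 and Dtx3l overlap on opposite strands. The libraries were made with a stranded kit, but whether the strand was used in counting is not given in the sources used here, so reads from the shared stretch could have been assigned to either gene. Exons of Parp14 and Herc6 also overlap annotated transcripts, Gm49730 and Gm45193.

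**Figure D1:**
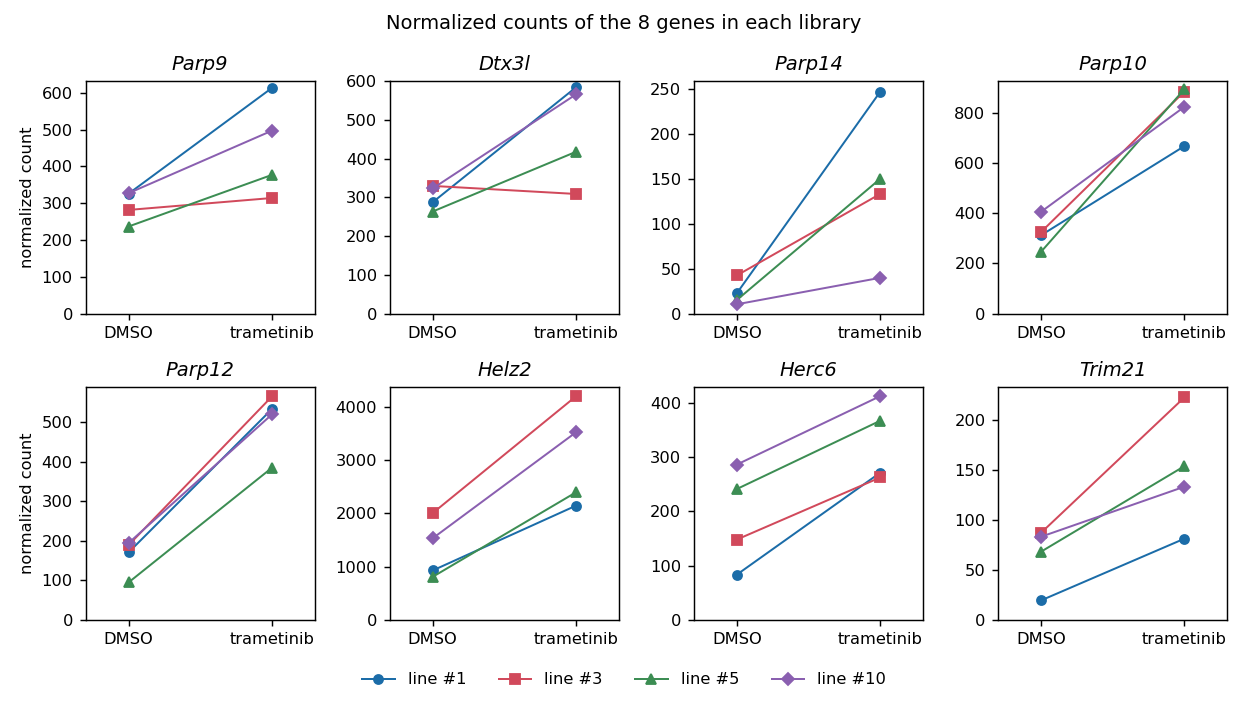
Normalized counts (y axes, linear from 0, a separate scale for each gene) with DMSO and trametinib (x axes), one panel for each of the 8 genes. Each marker is 1 library and each line joins the 2 libraries of a cell line. Parp9 and Dtx3l are nearly flat in line #3, at 282 to 314 and 329.9 to 309, while Parp10, Parp12 and Helz2 are separated by treatment without overlap.

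Parp14, a large mono-ADP-ribosyltransferase with macrodomains and a coactivator of STAT6, lies in the same locus and had the largest fold change of the group, from the lowest level per kb of exon. It lies on the minus strand of chromosome 16 from 35832874 to 35871544, 54966 bases from Dtx3l. Its normalized counts were 22.8, 42.6, 15.3 and 10.4 with DMSO and 247, 133, 150.1 and 39.9 with trametinib in lines #1, #3, #5 and #10. Every line was higher with trametinib, but line #10 with trametinib was below line #3 with DMSO, so the treatments overlapped. The log2 fold change was 2.52 (SE 0.37), and it fell into a higher pair, 3.38 in line #1 and 3.22 in line #5, and a lower pair, 1.62 in line #3 and 1.84 in line #10. Its value ranged 6.19-fold over the lines with trametinib, against 1.95-fold for Parp9.

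Parp10 and Parp12, a pair of mono-ADP-ribosyltransferases, were higher in every trametinib library than in any DMSO library. Parp10, on chromosome 15 from 76231174 to 76243441 on the minus strand, had normalized counts of 313, 325, 247 and 406 with DMSO and 668, 885, 895 and 825 with trametinib. Line #5 went from the lowest DMSO value to the highest trametinib value, and the log2 fold change was 1.35 (SE 0.16). An exon of Parp10 overlaps Plec, the gene of the cytoskeletal linker plectin, which moved the other way, from a mean of 34546 normalized counts with DMSO to 19048 with trametinib (log2 fold change -0.85, limma adjusted p = 0.0012).

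Parp12, with zinc fingers that bind RNA, lies on chromosome 6 from 39086410 to 39118349 on the minus strand. Its normalized counts were 170.4, 189, 94.4 and 194 with DMSO and 533, 565, 384 and 519 with trametinib. Line #5 was lowest under both treatments but had the largest fold change, 4.04-fold. The log2 fold change was 1.66 (SE 0.15), and its line values, from 1.42 to 2.01, had the second smallest spread of the group after Helz2. In line #3, where Parp9 and Dtx3l stood at 0.16 and -0.09, the log2 fold changes were 1.44 for Parp10 and 1.58 for Parp12.

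Helz2, a helicase and nuclear receptor coactivator whose gene is interferon-induced, lies on chromosome 2 from 181227615 to 181242027 on the minus strand. Its normalized counts were 927, 2005, 807 and 1531 with DMSO and 2145, 4199.7, 2396 and 3523 with trametinib. All trametinib libraries lay above all DMSO libraries. Lines #3 and #10 were the higher ones under both treatments. Its log2 fold change was 1.26 (SE 0.11), with line values from 1.07 to 1.57, the smallest spread of the 8 genes.

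Herc6, the mouse ligase that attaches ISG15 to proteins, lies on chromosome 6 from 57581000 to 57664632 on the plus strand. Its normalized counts were 83.4, 148, 241 and 286 with DMSO and 271, 263, 367 and 413 with trametinib. The lines differed more with DMSO, where the highest was 3.43 times the lowest, than with trametinib, where it was 1.57 times the lowest. Line #1, lowest with DMSO, had the largest fold change, 3.23-fold, and line #10, highest with DMSO, the smallest, 1.44-fold. A line's fold change is computed from the same single DMSO library, so it is not independent of the DMSO level. This also holds for Parp12 above and Trim21 below, and whether the response depends on that level was not tested. The log2 fold change over the lines was 0.91 (SE 0.22), and the treatments overlapped.

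Trim21, a cytosolic antibody receptor and ubiquitin ligase, lies on chromosome 7 from 102557921 to 102565486 on the minus strand. Its normalized counts were 19.4, 87.1, 68.2 and 83.1 with DMSO and 81.2, 223, 154 and 133 with trametinib. As for Herc6, line #1 was lowest with DMSO and had the largest fold change, 4.02-fold against 1.60-fold in line #10, and its trametinib value only reached the DMSO level of the other lines. The log2 fold change was 1.30 (SE 0.26). RefSeq promoter windows matched 5 of the 8 genes, Dtx3l, Parp12, Helz2, Herc6 and Trim21. No window was matched by symbol to Parp9, Parp14 or Parp10. Of these 5 windows, that of Trim21, chr7:102565433-102565732 of GRCm38.p6 on the minus strand, holds the response element core, and none holds TTCNNNGAA. The window is shown for this element, whose 2 matches overlap and begin 13 and 19 bases after the first base of the transcript. Capitals mark both matches.
Trim21 promoter: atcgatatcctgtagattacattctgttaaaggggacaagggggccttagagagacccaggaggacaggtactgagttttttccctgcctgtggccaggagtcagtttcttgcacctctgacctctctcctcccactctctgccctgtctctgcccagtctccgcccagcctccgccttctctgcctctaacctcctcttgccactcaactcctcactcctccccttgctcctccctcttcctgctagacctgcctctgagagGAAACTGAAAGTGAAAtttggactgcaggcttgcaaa
A match of these letters is no proof of a site in use, and the binding of factors was not measured here. Windows without a match may have sites outside them, which were not searched.

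With the 8 genes set side by side, Parp14 had the largest log2 fold change in each of the 4 lines. Parp9 and Dtx3l were among the 4 smallest in each line. In line #1, Trim21 and Herc6 came next after Parp14, while Herc6 was the smallest in lines #5 and #10. The median log2 fold change of the 8 genes was 1.42 in line #1, 1.21 in line #3, 1.36 in line #5 and 0.91 in line #10, and the median over all 15888 genes tested lay between 0.034 and 0.063 in the same lines. In the fit over all genes, 8 of the 8 genes were higher below 0.05 in limma's adjusted p, where 27.3% of all genes tested were, and 0 of the 8 were lower, where 25.6% were. In 4 of 4 lines, 7 of the 8 were higher, against 34.7% of all genes tested, and 3 of the 8 did not overlap between treatments, against 15.1%. Since the genes were selected on this response, nothing is read from these counts. Parp9 and Dtx3l were not called without the block, with quantile normalization and without line #1, #5 or #10, and Dtx3l also with no filter and with eBayes without trend. Without the block, Herc6 and Trim21 were not called either, and against a minimum change of 2-fold Parp12 alone was called.

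**Figure D2:**
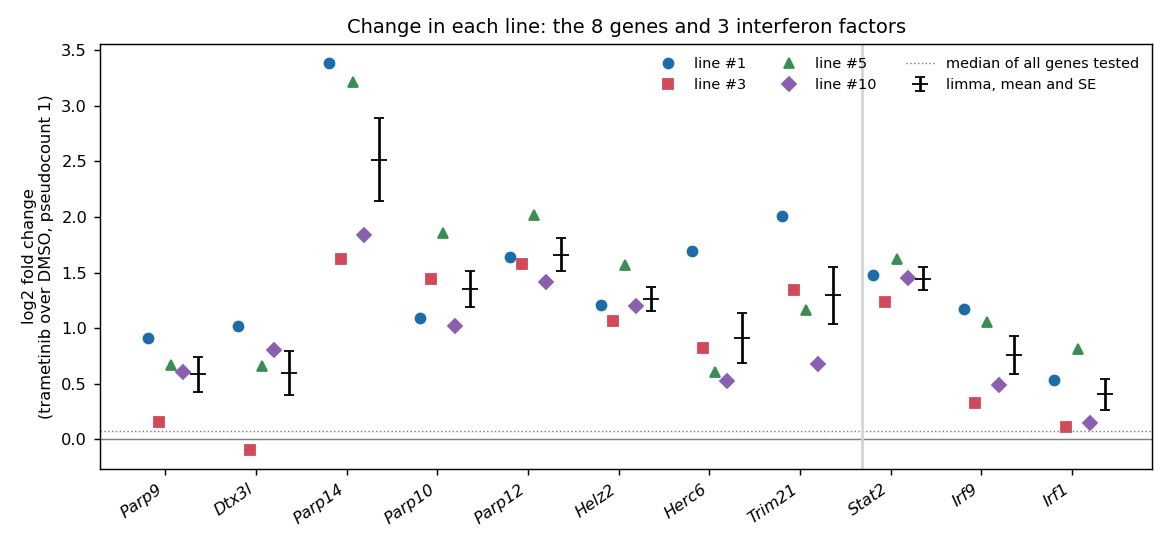
Log2 fold change of trametinib over DMSO (y axis, pseudocount of 1) for the 8 genes and, right of the grey line, Stat2, Irf9 and Irf1 (x axis). Coloured markers are the 4 cell lines, black bars the limma mean with its standard error, and the dotted line the median of all genes tested, 0.072. Line #3 (squares) lies near 0 for Parp9, Dtx3l and Irf1 but above 1 for Parp10, Parp12, Helz2 and Stat2. For Irf1, line #10 lies as near 0, at 0.15 against 0.11 in line #3.

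Levels of different genes were compared per kb of annotated exons. With DMSO the order was Helz2 at 114 ± 48.3 normalized counts per kb (SD, n = 4 lines), Parp10 at 75.5 ± 15.3, Parp9 at 60.1 ± 8.81, Dtx3l at 52.6 ± 5.42, Parp12 at 40.5 ± 11.5, Herc6 at 20.4 ± 9.83, Trim21 at 17.4 ± 8.37 and Parp14 at 2.45 ± 1.52. Parp14 alone was separated from its neighbour in this order by more than their SDs. With trametinib, Helz2 at 266 ± 83.7 normalized counts per kb and Parp10 at 191 ± 24.5 were followed by Parp12 at 125 ± 19.9, which had passed Parp9 at 92.4 ± 27.2 and Dtx3l at 82.01 ± 22.8. Trim21 at 39.8 ± 15.8, Herc6 at 35.3 ± 7.90 and Parp14 at 15.3 ± 9.12 remained lowest. Here the means ± SD were apart between Parp10 and Parp12, between Dtx3l and Trim21 and between Herc6 and Parp14, and overlapped between the other neighbours.

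Whether the 8 genes differ between the cell lines, whatever the treatment, is a comparison that the choice of genes did not use. It was tested with limma's F test of the cell line, over both libraries of each line and with treatment as a term. Helz2 (adjusted p = 0.0089) and Trim21 (adjusted p = 0.040) differed between lines, 2 of 8 genes, where 27.6% of all genes tested did, so the group as a whole was near that share. Helz2 was highest in line #3, followed by lines #10, #1 and #5. Line #3 exceeded line #1 by 1.04 (SE 0.15, limma adjusted p = 0.010) and line #5 by 1.06 (adjusted p = 0.0094) on the log2 scale, and line #10 exceeded both line #1 (adjusted p = 0.029) and line #5 (adjusted p = 0.027). Lines #3 and #10, and lines #1 and #5, were not told apart. Trim21 was lowest in line #1, 1.78 below line #3 on the log2 scale (SE 0.36, limma adjusted p = 0.028), and the other 5 pairs of lines did not pass. The call of Trim21 was lost without line #1, without line #3, without line #5 and without line #10, with no filter on low values and with eBayes without trend. That of Helz2 was kept in each of these.

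The other 6 genes did not pass the F test. The adjusted p was 0.072 for Herc6, 0.075 for Parp12, 0.084 for Parp14, 0.14 for Parp9, 0.47 for Dtx3l and 0.54 for Parp10. The largest pairwise difference was 1.83 on the log2 scale for Parp14, lines #1 against #10 (SE 0.53, limma adjusted p = 0.068), and 1.19 for Herc6, lines #10 against #1 (SE 0.31, adjusted p = 0.055). For Dtx3l the 4 lines lay within 0.42 of each other. The 2 libraries of a line differ in treatment, so a response that differs between lines widens the error of this test. With 1 library per line and treatment, a difference in response between lines, such as that of Parp9 and Dtx3l in line #3, could not be tested.

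The genes most like Parp9 were sought by Pearson's r of log2 values over the 8 libraries among 15887 genes. The 5 nearest outside the group were Ggact at 0.97, Rasl11b at 0.97, Ubtd1 at 0.96, Synpo2 at 0.96 and Cgn, which encodes the tight junction protein cingulin, at 0.96. Like Parp9, these 5 had their smallest log2 fold change in line #3, from 0.079 for Cgn to 1.73 for Synpo2, and their largest in line #1 or #10. They were chosen for likeness to Parp9 in these same libraries, so a shared pattern follows from the choice. With DMSO, Synpo2 was below 10 in every line, so it passed the filter at a mean of 10 only through its trametinib values. Its DMSO values lay under the 3-read floors in lines #3 and #5, at 1.53 and 2.05, so the size of its change is uncertain. Dtx3l ranked 11 of 15887 with r = 0.95. The other genes of the group were further away, with Parp12 at rank 692 (r = 0.76), Parp10 at rank 1823 (r = 0.65), Parp14 at rank 2472 (r = 0.59), Helz2 at rank 3694 (r = 0.48), Herc6 at rank 4524 (r = 0.40) and Trim21 at rank 6905 (r = 0.16). Stat2 stood at rank 2238 (r = 0.61). These values describe 8 libraries that share 4 lines and 1 treatment, and carry no test.

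Among all 15888 genes tested, 27.3% were higher and 25.6% lower in limma. Over the 6 lists of related genes that follow, 30 of 52 genes tested were higher and 9 lower. Tested against a minimum change of 2-fold, 6 were higher, Uba7, Dtx3, Trim12a, Trim12c, Trim34a and Stat2, and 0 lower, so each other call given for these lists was lost under that setting. The other PARP genes moved in both directions. Of 12 such genes, all tested, 7 were higher and 4 lower with trametinib below 0.05 in limma's adjusted p, and with no block for the line 4 and 2. The number lower was also 2 without line #1, with libraries rescaled to equal totals and with quantile normalization. Their median log2 fold change was 0.55, against 0.072 for all genes tested. Parp8 and Parp3 rose most, with log2 fold changes of 1.52 (SE 0.16, adjusted p = 0.00068) and 1.40 (SE 0.15, adjusted p = 0.00073) in limma, higher in 4 of 4 lines. Parp1, the main poly-ADP-ribose polymerase of the DNA damage response, fell from 7457 ± 539.5 to 3471 ± 738 normalized counts (SD, n = 4 lines), by 1.13 on the log2 scale (SE 0.13, limma adjusted p = 0.00092). Its partner in single-strand break repair, Parp2, fell by 1.03 (SE 0.18, limma adjusted p = 0.0035). Zc3hav1, the antiviral zinc finger protein ZAP or PARP13, whose gene is also a target of interferon, had a log2 fold change of -0.31 (SE 0.10, limma adjusted p = 0.041) and lost its call in 9 of 15 alternatives, with Zc3hav1 at -0.18 when libraries were rescaled to equal totals. Without line #3 Zc3hav1 was still called, at -0.21. Tiparp, a PARP induced by the aryl hydrocarbon receptor, went from 796 normalized counts under DMSO to 1692 under trametinib in line #3, was lower with trametinib in the other 3 lines, and did not pass (log2 fold change -0.10, limma adjusted p = 0.78). It passed as lower without line #3.

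Among 8 enzymes that remove ADP-ribose, 7 were tested, of which 3 were higher and 3 lower, where 27.3% and 25.6% of all genes tested were. Without the block the numbers were 1 and 2, and without line #5 1 and 1. Macrod1, a macrodomain hydrolase, rose by 1.51 (SE 0.29, limma adjusted p = 0.0051) on the log2 scale, and Nudt16 by 0.85 (SE 0.21, adjusted p = 0.013), a call that was lost without the block, without line #5 and with quantile normalization, where Nudt16 stood at 0.43 (adjusted p = 0.11). Oard1, which cleaves ADP-ribose from glutamate, fell by 0.90 (SE 0.14, limma adjusted p = 0.0020), and Macrod2 by 0.73 (SE 0.18, adjusted p = 0.014), whose call was lost without line #5 and without line #10. With quantile normalization Macrod2 stood at -1.12. Parg, the main poly-ADP-ribose glycohydrolase, was not called (log2 fold change 0.22, limma adjusted p = 0.16), but passed as higher with Parg at 0.35 when libraries were rescaled to equal totals (adjusted p = 0.041). Without line #1 Parg stood at 0.13, and without line #5 at 0.33. The median of the 7 enzymes tested was 0.22.

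The enzymes of ISG15 conjugation, in which Herc6 acts as the ligase, were led by Uba7, the activating enzyme. Uba7 had normalized counts of 119, 179, 83.5 and 101 with DMSO and 899, 828, 297 and 328 with trametinib, with no overlap. Its log2 fold change was 2.16 (SE 0.22, limma adjusted p = 0.00062), and the call held in each of 15 alternatives. Of the 6 genes on this list 3 were higher, Uba7, Isg15 and Usp18, and 1 was lower, Arih1, whose call was lost in 10 of 15 alternatives. Among all genes tested, 27.3% were higher and 25.6% lower. Isg15 and Usp18 passed the filter at a mean of 10 only through their trametinib values. Their DMSO means were 5.03 and 5.24, so their calls are given as a description. With a filter at a mean of 50, which leaves out Isg15 and Usp18, 1 gene of the list was higher. The median log2 fold change of the list was 1.16. Isg15 itself was low, at 1.55, 12.3, 2.48 and 3.81 normalized counts with DMSO and 8.70, 23.7, 23.4 and 16.3 with trametinib. With DMSO, lines #1 and #5 lay under their 3-read floors, so the size of its log2 fold change of 1.87 (limma adjusted p = 0.011) is uncertain. Usp18, which removes ISG15 and restrains the interferon receptor, was also low, with a mean of 5.24 under DMSO and 25.5 under trametinib and a log2 fold change of 1.91 (SE 0.48, limma adjusted p = 0.015). Its call was lost without line #1, and the size of its change is uncertain too. Ube2l6, the conjugating enzyme, was not called (log2 fold change 0.45, limma adjusted p = 0.13) and was higher in 3 of 4 lines. With quantile normalization Ube2l6 stood at -0.02.

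**Figure D3:**
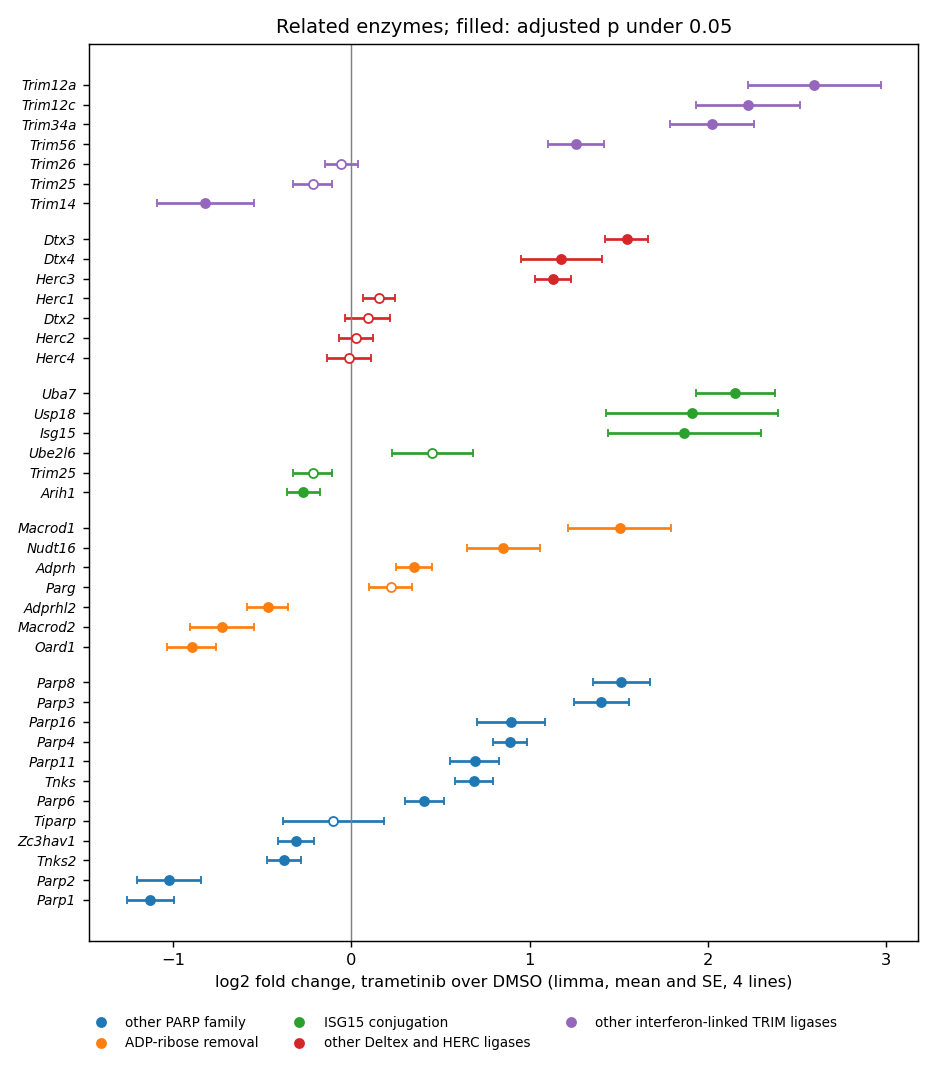
Log2 fold change of trametinib over DMSO (x axis, limma mean with standard error over 4 lines) for the genes tested in 5 lists of related enzymes (y axis, one colour per list). Filled circles have an adjusted p under 0.05. The PARP family runs from Parp1 at -1.13 to Parp8 at 1.52, and Trim12a at 2.60 is the furthest to the right.

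Among the relatives of the ligases, 7 of 8 Deltex and HERC genes were tested, of which 3 were higher and 0 lower in limma, with a median log2 fold change of 0.15. At an unadjusted p under 0.05, 0 were lower as well. In limma, 27.3% of all genes tested were higher and 25.6% lower, and the median of all was 0.072. Dtx3, a close relative of Dtx3l, had a log2 fold change of 1.55 (SE 0.12, limma adjusted p = 0.00032) and was higher in 4 of 4 lines, with 2.92-fold the DMSO value against 1.51-fold for Dtx3l. Dtx4 rose 2.26-fold (limma adjusted p = 0.0050), a call that was lost without the block, and Herc3 rose by 1.13 on the log2 scale (adjusted p = 0.00043). Of 12 other TRIM genes linked with interferon, 7 were tested, with 4 higher, 1 lower and a median of 1.26. Trim12a had the largest log2 fold change, 2.60 (SE 0.37, limma adjusted p = 0.0017), and went from 32.7 to 460.4 normalized counts in line #3. Trim12c followed at 2.23 (SE 0.29, limma adjusted p = 0.0012), whose call was lost without the block, and both belong to a family of similar genes between which reads could be split. Trim14 was lower in 4 of 4 lines (log2 fold change -0.82, limma adjusted p = 0.041), and its call was lost in 9 of 15 alternatives, though with quantile normalization Trim14 stood at -1.27 (adjusted p = 0.0088).

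Of 14 genes of interferon receptors, kinases and factors, 10 were higher and 0 lower in limma, with 5 higher without the block, 6 without line #1, 6 without line #10 and 0 lower at an unadjusted p under 0.05. Their median log2 fold change was 0.52. Among all 15888 genes tested, 27.3% were higher and 25.6% lower in limma, and without the block 2205 and 2347 genes were. Stat2 rose in 4 of 4 lines, by 1.45 (SE 0.10, limma adjusted p = 0.00023). Irf9 rose by 0.76 (limma adjusted p = 0.0096), and Irf1 had a log2 fold change of 0.40 with an adjusted p of 0.049 that was above 0.05 in 10 of 15 alternatives. Without line #5 its log2 fold change was 0.27. Stat6, the factor that Parp14 coactivates, rose by 0.45 (SE 0.10, limma adjusted p = 0.011), a call that was lost without the block, without line #1 and without line #10.

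Of 5 protein-coding neighbours of Parp14, Dtx3l and Parp9 on chromosome 16, 1 on one side and 4 on the other, 0 were called higher and 3 were called lower in limma, and 0 were higher at an unadjusted p under 0.05. Fam162a and Ccdc58 lie beyond the 3 nearest annotated genes of Parp9 and were named after their values were seen. Nothing is read from these counts. Hspbap1, on the far side of Parp14, had a log2 fold change of -0.11 (limma adjusted p = 0.59). Kpna1, which codes for an importin and starts 6144 bases beyond Parp9, fell from a mean of 3003 to 2398 normalized counts, by 0.34 (SE 0.093, limma adjusted p = 0.020), in 4 of 4 lines. Further along, Wdr5b was at 0.017 (adjusted p = 0.95) and Fam162a and Ccdc58 at -0.70 (adjusted p = 0.026) and -0.82 (limma adjusted p = 0.0015). Line #3 had the lowest value of Fam162a, and without it the mean of Fam162a was -0.43. Around the 8 genes, 37 other genes were among the 3 nearest annotated ones on either side. Of these, 14 were tested, 5 were higher and 2 lower. Among all genes tested, 27.3% were higher and 25.6% lower, and nothing is read from these counts of neighbours. Grina, next to Parp10, rose by 0.94 (limma adjusted p = 0.0018), Kdm7a, the second gene beside Parp12, by 1.54 (adjusted p = 0.00075), and Gmeb2, next to Helz2, was not called (log2 fold change -0.12, adjusted p = 0.38). Of the non-coding neighbours, Gm37397 beside Herc6 rose by 0.98 (limma adjusted p = 0.039) and Gm15564, antisense to Parp9, was not called (log2 fold change 0.46, adjusted p = 0.32). Gm10237, Gm26838, Mir1942, 1700025N23Rik, 4930599N23Rik, Gm27896 and the coding Fndc11 were below the filter. The genes on both sides of Trim21, Olfr546-ps1 and Olfr550, stood at 0.48 or lower on average.

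**Figure D4:**
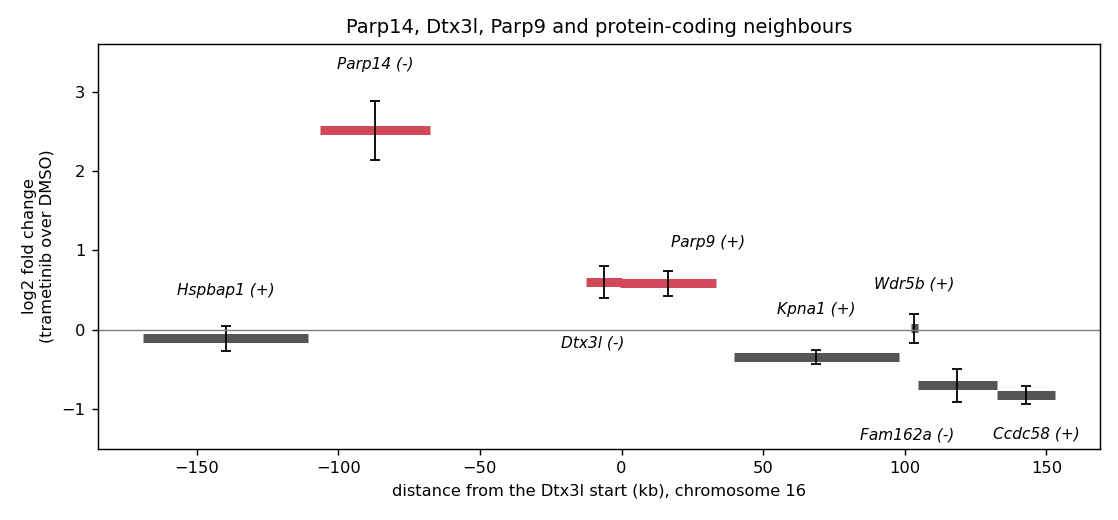
Log2 fold change of trametinib over DMSO (y axis, bars with standard error from limma) by distance in kb from the Dtx3l start (x axis) for 8 protein-coding genes of chromosome 16, each drawn over its annotated span with its strand in brackets. Parp14, Dtx3l and Parp9 (red) lie at 2.52, 0.60 and 0.58. The neighbours shown (grey), some of them named after their values were seen, lie between -0.82 and 0.017.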

How the data were processed

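Polyadenylated RNA of 8 cultures was sequenced from TruSeq stranded libraries as 2 × 100 bp reads. The authors deposited normalized counts, a signal per gene symbol scaled between libraries, and the submitters' processing notes name CASAVA 2.17, Salmon 0.12, DESeq2 1.18 and mm10 without their role. All 8 columns were used. Values were transformed as log2(value + 1) and fitted with limma 3.58.1 in R 4.3.3 (lmFit, eBayes with trend), with treatment and the cell line as terms, keeping 15888 genes whose mean reached 10, and the Benjamini-Hochberg adjustment ran over all of them (threshold 0.05). Line differences were tested with the F test of the line terms, and the 6 pairs of lines with adjustment over genes and pairs together. The line number in the labels pairs the 2 libraries of a line, whose deviations from the treatment means correlated across genes at 0.63 to 0.72. Whole reads could not be recovered, and the floor of 3 reads covers counting error only.

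On simulated data, the fit recovered 140 of 200 genes changed by 2 on the log2 scale between treatments and 147 of 200 changed by 3 in 1 line, among 15888 genes, with 2 and 3 unchanged genes called. The 8 genes, the gene lists and the tests were chosen with earlier results of these data known. Named in the text are the 8 genes, the genes of each list with the 2 largest rises and the 2 largest falls called, 14 genes fixed by name (1 of them, and 1 allele of the mice, not reported here), the nearest neighbours and the 5 genes most like Parp9. Epcam, Cd3e, Lyz2, Ptprc, Csf1r, Cd14, Col1a1, Tek, Cela1, Trim34a, Sox9, Cldn4, the keratins, Gm49730, Gm45193, Plec, Kdm7a, Parg, Arih1 and the further genes of the chromosome 16 locus were named after their values were seen. So was Cd68. Positions are those of GENCODE M21 (GRCm38) and promoter windows those of RefSeq (GRCm38.p6), matched by symbol. Alternatives were pseudocounts of 0.1 and 5, no filter or a filter at 50, 3 other scalings, no block, other eBayes settings, a minimum change of 2-fold and leaving out each line. Tables were handled with Python 3.11.15, numpy 2.4.6 and pandas 2.3.3 and plots drawn with matplotlib 3.10.9.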

Additional observations from a re-analysis of the deposited data

Results flagged for a closer look

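In 60 groups of 4 values for the 8 genes and 12 related ones, a line far from the other 3 was found 4 times, where chance gives about 3. For Parp1, line #3 had -1.63 on the log2 scale and the remaining lines -0.97 to -0.95. Stat2 under DMSO had 862 normalized counts in line #3, while lines #1, #5 and #10 had 569 to 589. Ube2l6 under DMSO had 169.8 in line #10, while lines #1, #3 and #5 had 63.6 to 68.3. Usp18 under DMSO had 8.21 in line #5, while lines #1, #3 and #10 had 3.96 to 4.49. The log2 fold change of Dtx3l was -0.094 in line #3 and lay between 0.66 and 1.02 elsewhere, an opposite direction. This difference was not tested, since each line has 1 library per treatment.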

How the results depend on the processing

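The 8 genes were selected on their response to trametinib, so the counts of them that follow are given for completeness and nothing is read from them. With trametinib, 8 of them were called higher, 4 without the replicate block for the cell line, where all genes higher and lower numbered 2205 and 2347 and list genes 18 and 4 against 30 and 9, and 1 with a minimum change of 2-fold, where the numbers were 557 and 176 for all genes and 6 and 0 for list genes. With libraries rescaled to equal totals, 5 list genes were lower, and 5315 of all genes were higher and 3284 lower, against 4341 and 4075. The median of all genes tested was then 0.20 on the log2 scale, against 0.072. More genes were lower than higher under the other scalings. The numbers lower and higher were 4492 and 3848 with each library centred on its median, and 4233 and 3779 with quantile normalization. Genes that differ between lines numbered 2862 with no filter and 1879 without trend, against 4391, and 1 of the 8 genes in both. With each line left out in turn, 3391 to 4188 of all genes were higher and 3270 to 3990 lower, 6 to 8 of the 8 genes were higher, 24 to 31 list genes higher and 4 to 8 list genes lower, 1945 to 4377 genes differed between lines, and so did 1 of the 8 genes each time. The causes were not tested.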
